A study of Homo sapiens with 6 samples.

Results

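The genes described here are the insulin-like growth factor ligands IGF1 and IGF2, the H19 transcript, and the IGF binding proteins IGFBP1 to IGFBP7. They are the 10 rows with these symbols among the 38557 gene rows of each count file, and all 10 were found. Stranded mRNA libraries came from cardiomyocytes made from the established human pluripotent stem cell line WTC11, labelled as wild type. One group was kept in RPMI with the serum-free supplement B27 (RPMI plus B27) and the other in DMEM plus fatty acids, with 3 biological replicates in each. What the media contain beyond these names, and how long the cells were kept in them, is not given in the sources used here. All 6 libraries come from the same line, so they hold no second genetic background.

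IGF1 and IGF2 are secreted growth factors that signal through the receptor tyrosine kinase IGF1R and, for IGF2, also through insulin receptor isoforms, while IGF2R binds IGF2 and carries it to lysosomes. The binding proteins IGFBP1 to IGFBP6 hold the ligands with high affinity outside the cell, and proteases such as PAPPA release the ligand by cutting them. IGFBP7 binds IGFs weakly and is found in the matrix of vessels and stroma. In the developing heart IGF2 is a growth signal for the compact wall, and IGF2 and H19 share an imprinted locus from which the paternal copy gives IGF2 and the maternal copy H19.

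IGF1, IGF2, IGFBP2 and IGFBP7 were lower in all 3 DMEM plus fatty acids libraries than in any RPMI plus B27 library. Levels are counts per 1000000 gene counts, scaled between libraries by TMM (CPM). IGF1 and IGFBP7 passed the test (edgeR's quasi-likelihood test, adjusted p under 0.05 over all genes tested), and IGF2 and IGFBP2 did not. IGFBP3, IGFBP4, IGFBP5 and IGFBP6 overlapped between the media, and H19 and IGFBP1 had too few counts to be tested. So 8 of the 10 genes were tested, 2 were called lower and 0 higher, where 1.36% of the 16107 genes tested were called (1.07% lower and 0.292% higher). These counts are a description, since IGF1, with 0 to 1 counts per library in DMEM plus fatty acids, passed the filter on low counts only through RPMI plus B27. With at least 10 counts required in every library, IGFBP7 was the 1 call among 7 of the genes, beside 119 calls among 14501 genes in all. At an unadjusted p under 0.05 there were 4 of the 8 and 2848 of all genes. When same-numbered replicates were treated as blocks, 3 of the 8 were called lower, IGFBP2 being added, against 4.78% of all genes (3.42% lower and 1.36% higher). The 4 genes without overlap between media, all lower in DMEM plus fatty acids, compare with 25.6% of all tested genes without overlap in either direction and 12.8% in that direction. The median log2 fold change of the 8 genes was -0.64 and that of all tested genes 0.01.

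**Figure D1:**
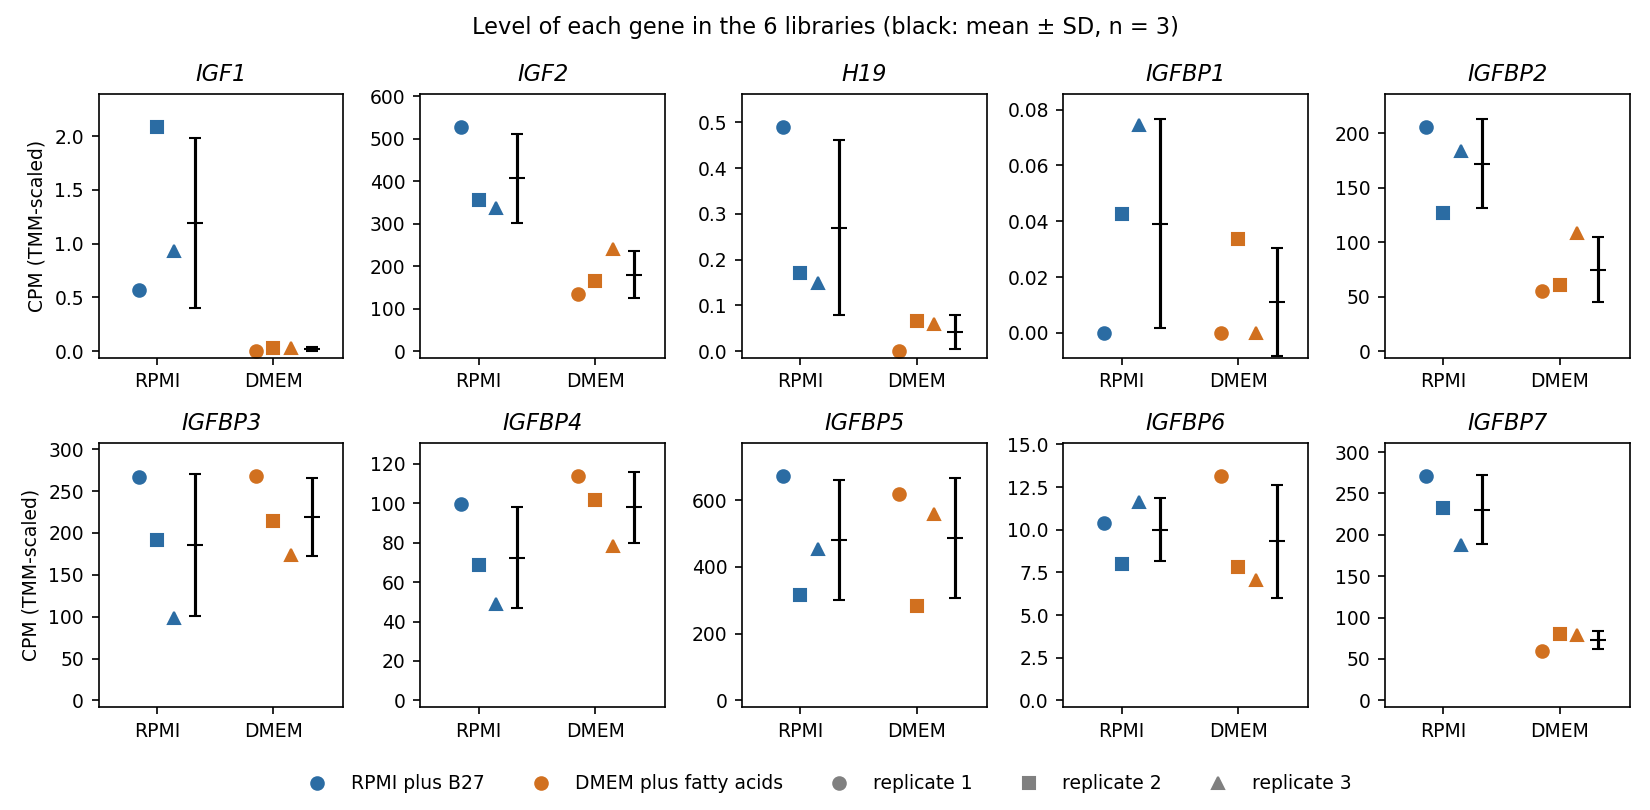
Level of the 10 genes as counts per 1000000 gene counts, scaled by TMM (CPM), on the vertical axes, by medium, each panel with its own scale. Points are single libraries with the replicate number as symbol, and black bars are the mean ± SD of 3 libraries. IGF1, IGF2, IGFBP2 and IGFBP7 lie lower in every DMEM plus fatty acids library, while IGFBP3 to IGFBP6 overlap.

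Gene counts per library ranged from 23232324 to 31035389. Cardiomyocyte markers were high in every library, with TNNT2, cardiac troponin T, at 3063 to 3334 CPM in RPMI plus B27 and 3001 to 4216 CPM in DMEM plus fatty acids, and 0 of 12 such markers were called. With the replicate block 2 of the 12 were called lower, where 3.42% of all genes tested were. They were the beta myosin heavy chain MYH7 (means 9638 and 4000 CPM, adjusted p 0.0359) and the Z-disc protein ACTN2 (2218 and 1109 CPM, 0.0494), and neither overlapped between media. The alpha myosin heavy chain MYH6 went the other way without overlap (4758 and 8653 CPM) and was not called with the block (0.0797). In the fit without a block, 8 of the 12 had a log2 fold change below 0 and 4 above 0. Markers of other cells were also present. Summed over the list, fibroblast and stromal markers stood at 5140 to 9324 CPM in RPMI plus B27 and at 1323 to 2720 CPM in DMEM plus fatty acids. Of the 14 tested, 6 were called lower (1.07% over all genes tested), and 9 with the replicate block (3.42% over all genes tested). These 6 calls fell to 0 to 2 without any single library other than RPMI plus B27 replicate 3, without which there were 7, and with at least 10 counts required in every library 2 of 11 were called. Of the defining markers, COL1A1 was at 211.8 CPM or more in every library, while DCN was at 0 in DMEM plus fatty acids replicate 1. Together COL1A1, COL1A2 and COL3A1 made up most of the list's sum in every library. VIM overlapped between media (log2 fold change -0.12), and DDR2 was the 1 tested marker of the list above 0 (0.31). Smooth muscle markers summed to 2301 to 2985 and 824.5 to 1649 CPM, with 2 of 10 called lower, and epicardial markers to 1975 to 2399 and 885.1 to 1098 CPM, with 1 of 7 called lower. With the replicate block 4 of the 10 and 4 of the 7 were called lower (3.42% over all genes, 1.07% without the block). With a single library left out there were 0 to 2 smooth muscle calls and 0 epicardial calls. MYH11 of the smooth muscle list was at 4.42 to 81.2 CPM, and which cells made that list's sum was not tested. Most of the epicardial sum came from the keratins KRT8, KRT18 and KRT19, and KRT8, at 1065 to 1480 CPM in RPMI plus B27, was the call without the block. WT1, UPK3B, MSLN and ALDH1A2 of that list were below 1 CPM in every library. Endothelial markers (65.3 to 246.2 and 121.5 to 467.7 CPM) and pluripotency markers (27.8 to 68.6 and 31.7 to 70.4 CPM) overlapped between media, with 0 of 5 called in each list. TDGF1 was the largest part of the pluripotency sum in every library. POU5F1, NANOG, SOX2, LIN28A, DPPA4 and ZFP42 of that list were below 1 CPM in every library. KDR was the largest part of the endothelial sum in every library, and PECAM1, CDH5 and VWF were below 1 CPM in every library. KDR had a log2 fold change of 1.26, while the other tested markers, TEK, TIE1, FLT1 and EMCN, were below 0 (list median -1.65). With the replicate block KDR was called higher (adjusted p 0.0245) and EMCN lower (0.0237), against 1.36% and 3.42% of all genes. The part of these cells in the results below was not tested, and in bulk RNA fewer cells of a type cannot be told apart from less RNA per cell.

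The regions just upstream of RefSeq starts of the binding protein genes introduce the family. IGFBP2 and IGFBP5 lie tail to tail on chromosome 2 with 7668 bases between them, and their counts in the 2 media are set side by side further on. Shown are the 80 bases before a RefSeq start for the 4 abundant binding proteins that have one in the RefSeq table (GRCh38.p14), each from 5′ to 3′ on the gene's strand. Capitals mark letters like those of a TATA box (TATAAA, its variant TATATA or its variant TTTAAA) or the GC box GGGCGG, on either strand. IGFBP2 has 3 starts in the table, and the middle one is shown, the only one of the 3 whose window holds a GC box. The windows shown for IGFBP2 and IGFBP3 lie inside the spans that GENCODE gives these genes, which begin further upstream.
IGFBP2, chr2:216633340-216633419, plus strand: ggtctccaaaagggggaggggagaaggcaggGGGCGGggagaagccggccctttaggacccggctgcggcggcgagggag
IGFBP5, chr2:216695550-216695629, minus strand: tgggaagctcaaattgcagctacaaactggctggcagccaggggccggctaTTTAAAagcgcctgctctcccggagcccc
IGFBP3, chr7:45921273-45921352, minus strand: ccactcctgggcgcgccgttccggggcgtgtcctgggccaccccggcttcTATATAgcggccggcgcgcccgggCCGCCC
IGFBP4, chr17:40443370-40443449, plus strand: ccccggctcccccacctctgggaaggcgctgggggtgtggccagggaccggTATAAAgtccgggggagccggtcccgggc

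TATA-like letters were found in the windows of IGFBP3, IGFBP4 and IGFBP5, beginning 30, 29 and 29 bases before the start. They were not found in any of the 3 IGFBP2 windows, nor in those of IGFBP6, H19 and IGF1. Of all 35116 windows of this length in the table, 8.35% hold such letters and 27.8% hold a GC box. The motifs were chosen with the sequences in view, so that this is a description of the letters alone. Of the 10 genes, 7 had an entry in the table, and IGF2, IGFBP1 and IGFBP7 are named only.

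IGF1, the ligand that acts after birth largely under growth hormone, was at the edge of detection. The gene lies at chr12:102395874-102481744 on the minus strand (GRCh38, GENCODE release 29). It had 15, 49 and 25 counts in RPMI plus B27 replicates 1 to 3, and 0, 1 and 1 in DMEM plus fatty acids replicates 1 to 3. The corresponding CPM were 0.565, 2.09 and 0.932 in the first medium and 0, 0.0334 and 0.0296 in the second. All 3 RPMI plus B27 libraries were above all 3 others, and replicate 2 was the highest. HELLPAR and LINC02456 overlap IGF1 on the opposite strand. Depending on the strand setting of the counting, reads of IGF1 may have been set aside as ambiguous.

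IGF1 was called lower in DMEM plus fatty acids, with a fitted log2 fold change of -5.44 ± 0.83 (SE) and an adjusted p of 0.0402. Because of its low counts, the fitted value depends on the prior count. In summed counts, 89 against 2 counts gave a ratio of 46.4 per gene count (exact 95% interval 12.5 to 389), which covers counting error alone. The call was lost when any single library was left out, with adjusted p of 0.0543, 0.104 and 0.0596 without RPMI plus B27 replicates 1, 2 and 3, and of 0.0967, 0.122 and 0.103 without DMEM plus fatty acids replicates 1, 2 and 3. The direction was the same in all of these fits.

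IGF2, the fetal growth factor, was the abundant ligand. It lies at chr11:2129112-2149603 on the minus strand. IGF2 stood at 526.9, 355.6 and 337.6 CPM in RPMI plus B27 replicates 1 to 3 and at 133.6, 165.4 and 240.7 CPM in DMEM plus fatty acids. The media did not overlap, and replicate 1 was the highest library in the first medium and the lowest in the second. The means were 406.7 ± 104.5 and 179.9 ± 55.0 CPM (SD, n = 3), a log2 fold change of -1.18 ± 0.26 (SE). Its adjusted p was 0.0837, or 0.0700 with the replicate block, so that the difference did not pass the threshold. Over 13 alternative analyses it was lower in every one and called in 2, with adjusted p from 0.0011 to 0.25.

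Other transcripts overlap IGF2. The antisense gene IGF2-AS, which lies on the opposite strand at chr11:2140501-2148666, had 86, 45 and 43 counts in RPMI plus B27 and 18, 23 and 33 in DMEM plus fatty acids, a log2 fold change of -1.41 ± 0.36 (SE) with an adjusted p of 0.112. Its libraries came in the same order as those of IGF2 within RPMI plus B27. INS-IGF2, a read-through transcript from the insulin gene, had 0 counts in all 6 libraries. It overlaps IGF2 on the same strand, as do MIR483 and AC132217.1. Reads shared with these genes can be set aside at any strand setting, so the 0 says little and IGF2 may be undercounted. The kit keeps strand, but the strand setting of the counting is not given in the sources used here, so reads of IGF2 and IGF2-AS may be mixed, and reads matching several genes were set aside as ambiguous (3.9% to 4.15% of a library).

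H19, the non-coding transcript of the same imprinted domain at chr11:1995176-2001470, lies 127641 bases from IGF2 and was barely detected. It had 13, 4 and 4 counts in RPMI plus B27 and 0, 2 and 2 in DMEM plus fatty acids, or 0.490, 0.170 and 0.149 against 0, 0.0669 and 0.0593 CPM. The media did not overlap, but a count of 0 allows up to 0.0967 to 0.129 CPM (3 counts) in a library of this depth. Summed, 21 against 4 counts gave a ratio of 5.48 (exact 95% interval 1.85 to 21.9, counting error alone), and H19 was not tested in the main fit. In the edgeR fit without a filter on low counts it was not called (log2 fold change -2.45, adjusted p 0.232). MIR675 overlaps H19 on the same strand, and RF01972 and RF01973 on the opposite strand, so H19 may be undercounted.

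Relative to IGF2, H19 had 0.930, 0.479 and 0.442 counts per 1000 IGF2 counts in RPMI plus B27 and 0, 0.404 and 0.246 in DMEM plus fatty acids. The libraries of the media did not overlap, with means of 0.617 and 0.217, and the ratio in DMEM plus fatty acids rests on 4 H19 counts in all. IGF2 RNA thus exceeded H19 RNA in each library. Which parental copy the IGF2 reads came from was not analysed here.

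IGFBP7, also called angiomodulin, was the binding protein that was called. It lies at chr4:57030773-57110385 on the minus strand. IGFBP7 stood at 270.7, 232.8 and 187.1 CPM in RPMI plus B27 and at 59.8, 80.1 and 78.4 CPM in DMEM plus fatty acids. The gap between the media was wider than the range within either of them. The means were 230.2 ± 41.9 and 72.8 ± 11.3 CPM (SD, n = 3), a log2 fold change of -1.66 ± 0.18 (SE) with an adjusted p of 0.0242. The call held without RPMI plus B27 replicate 3 (0.0342) and was lost without RPMI plus B27 replicate 1 (0.0512) or 2 (0.0947), and without DMEM plus fatty acids replicate 1 (0.0606), 2 (0.0698) or 3 (0.0743). Its log2 fold change lay between -1.79 and -1.53 over these 6 fits.

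IGFBP2, a binding protein with a preference for IGF2 that is abundant in fetal tissue, lies at chr2:216632828-216664436 on the plus strand. IGFBP2 stood at 205.5, 126.7 and 183.5 CPM in RPMI plus B27 and at 55.2, 60.9 and 108.6 CPM in DMEM plus fatty acids. The media did not overlap, although RPMI plus B27 replicate 2 and DMEM plus fatty acids replicate 3 came near each other. The means were 171.9 ± 40.7 and 74.9 ± 29.4 CPM (SD, n = 3), a log2 fold change of -1.20 ± 0.30 (SE). The adjusted p was 0.104 and the difference was not called, while with the replicate block it was called at -1.23 ± 0.22 (SE) and an adjusted p of 0.0387.

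IGFBP5, its neighbour at chr2:216672105-216695525 on the minus strand and a binding protein of muscle and bone matrix, did not share this pattern. IGFBP5 stood at 672, 315.3 and 454.2 CPM in RPMI plus B27 and at 619, 283.4 and 559.5 CPM in DMEM plus fatty acids. Replicate 1 was the highest and replicate 2 the lowest in both media, and the spread between replicates was larger than any difference between media (log2 fold change 0.02 ± 0.36 (SE), adjusted p 0.983). Leaving out single libraries gave a log2 fold change of -0.21 to 0.34, below 0 in 4 of 6 cases.

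Within each library, the log2 ratio of IGFBP2 to IGFBP5 counts was -1.71, -1.32 and -1.31 in RPMI plus B27 and -3.49, -2.22 and -2.37 in DMEM plus fatty acids. The corresponding ratio of IGFBP7 to IGFBP5 was -1.31, -0.44 and -1.28 in the first medium and -3.37, -1.82 and -2.84 in the second. Neither ratio overlapped between media. The ratio of IGFBP2 to IGF2, in contrast, was -1.36, -1.49 and -0.88 against -1.28, -1.44 and -1.15, and the libraries of the 2 media lay among each other. These pairs were chosen after their values had been seen, and the ratios are given as a description with no test. They do not depend on how the libraries were scaled.

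**Figure D2:**
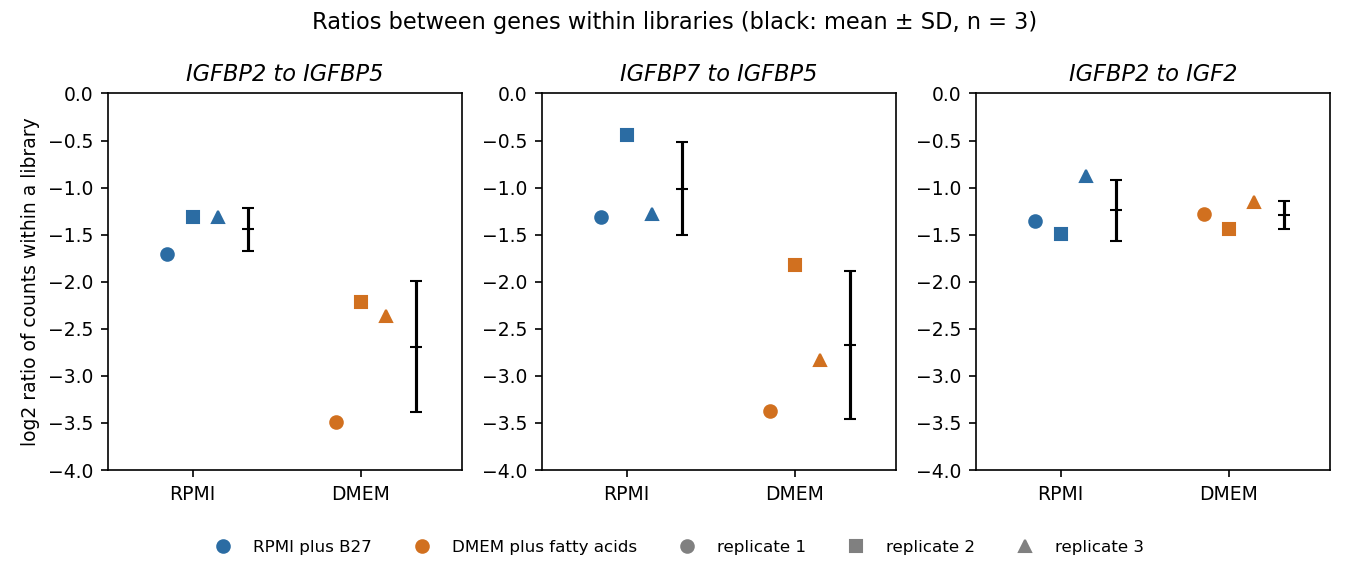
Log2 ratio of the counts of a pair of genes within each library (vertical axis), by medium. Points are libraries with the replicate number as symbol, and black bars the mean ± SD of 3 libraries. The ratios of IGFBP2 and IGFBP7 to IGFBP5 are lower in all DMEM plus fatty acids libraries, and the ratio of IGFBP2 to IGF2 overlaps.

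IGFBP3, the main carrier of IGFs in blood, lies at chr7:45912245-45921874 on the minus strand. IGFBP3 stood at 266.8, 191.4 and 98.2 CPM in RPMI plus B27 and at 267.7, 214.7 and 174.1 CPM in DMEM plus fatty acids (log2 fold change 0.24 ± 0.34 (SE), adjusted p 0.760). Within each medium replicate 1 was highest and replicate 3 lowest, and the replicate 3 libraries were the furthest apart.

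IGFBP4, the usual substrate of the protease PAPPA, lies at chr17:40443461-40457731 on the plus strand. IGFBP4 stood at 99.5, 68.7 and 48.9 CPM in RPMI plus B27 and at 113.7, 101.9 and 78.4 CPM in DMEM plus fatty acids. It was higher in DMEM plus fatty acids within each replicate number, but the media overlapped and the log2 fold change of 0.44 ± 0.26 (SE) had an adjusted p of 0.431. IGFBP6, which prefers IGF2 over IGF1, lies at chr12:53097436-53102345 and was low, at 10.4, 7.998 and 11.6 CPM in RPMI plus B27 and 13.1, 7.79 and 7.06 CPM in DMEM plus fatty acids (log2 fold change -0.10 ± 0.29 (SE), adjusted p 0.882).

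IGFBP1, the insulin-regulated binding protein of liver and decidua at chr7:45888357-45893668, was at background. It had 0, 1 and 2 counts in RPMI plus B27 and 0, 1 and 0 in DMEM plus fatty acids, none above the 3 counts that a count of 0 allows. Its neighbour IGFBP3, 18576 bases away, was among the abundant members. Hepatic and endoderm markers, whose sum was 16.0, 58.3 and 325 CPM in RPMI plus B27 and 7.84, 22.7 and 53.9 CPM in DMEM plus fatty acids, differed widely between libraries of the same medium. Within each replicate number the sum was lower in DMEM plus fatty acids, and 0 of 8 such markers were called without the block. With it 3 were called lower, AFP (adjusted p 0.0255), FGB (0.0297) and SERPINA1 (0.00613), against 3.42% of all genes. In replicate 1 of RPMI plus B27 and of DMEM plus fatty acids, AFP stood at 0 and 0.0861 CPM, FGB at 0.0377 and 0, and SERPINA1 at 0 and 0. These calls thus rest on replicates 2 and 3.

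**Figure D3:**
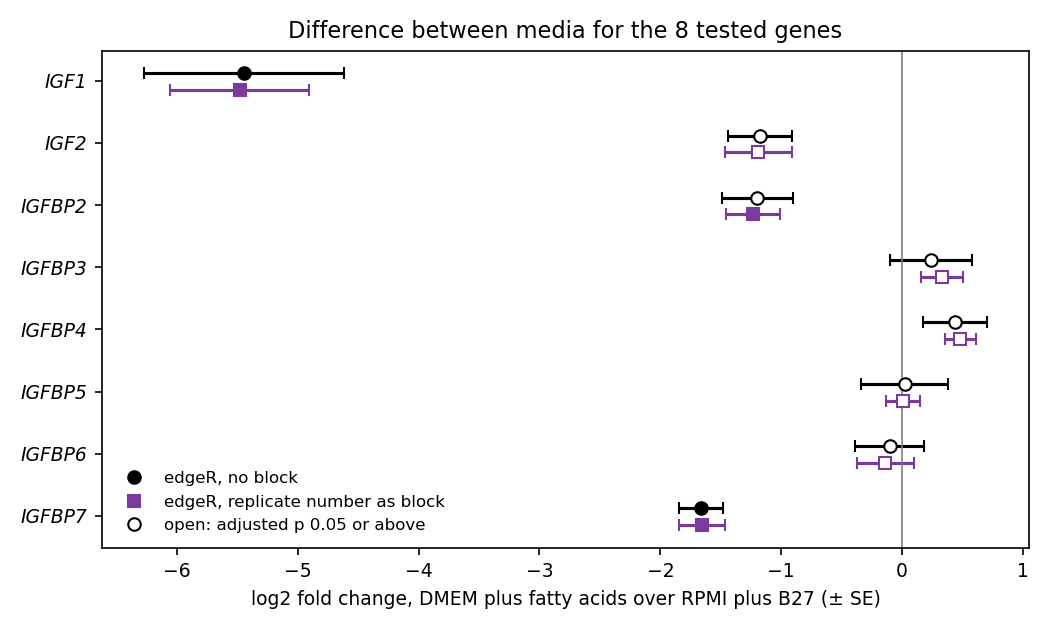
Log2 fold change of the 8 tested genes (horizontal axis), below 0 where DMEM plus fatty acids was lower, with the standard error as bars. Circles are the fit without blocks and squares the fit blocked on replicate number, filled where the adjusted p is under 0.05. IGF1 and IGFBP7 are filled in both fits and IGFBP2 with the block only.

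Levels of different genes were compared per length, as CPM per kb of merged GENCODE exon. Reads set aside as ambiguous are not in these levels, which may lower that of IGF2 and its place in the order. AC007563.2 overlaps IGFBP5, and POLR2B, UBE2CP3 and IGFBP7-AS1 overlap IGFBP7, all on the opposite strand. Depending on the strand setting of the counting, the levels of IGFBP5, IGFBP7, IGF1 and H19 may be lowered too. In RPMI plus B27, IGFBP7 had the highest mean level at 119.3 ± 21.7 CPM per kb (SD, n = 3), followed by IGFBP5 at 74.6 ± 27.9 and IGF2 at 58.3 ± 14.97. IGFBP3, IGFBP2 and IGFBP4 came next at 40.6, 36.1 and 32.9, IGFBP6 at 7.43, and IGF1, H19 and IGFBP1 at 0.147, 0.0931 and 0.0236. Neighbours from IGFBP7 down to IGFBP4 overlapped in their libraries, as did IGF1 and H19, and the steps to IGFBP6, from IGFBP6 to IGF1 and from H19 to IGFBP1 showed no overlap.

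In DMEM plus fatty acids the order began with IGFBP5 at 75.6 ± 27.8 CPM per kb, then IGFBP3 at 47.9 ± 10.3, IGFBP4 at 44.6 ± 8.16 and IGFBP7 at 37.7 ± 5.84. IGF2 followed at 25.8 ± 7.88, IGFBP2 at 15.7 ± 6.16 and IGFBP6 at 6.93 ± 2.46, while H19, IGFBP1 and IGF1 were at 0.0145, 0.00674 and 0.00259. IGFBP7, the first of the 10 genes in RPMI plus B27, was thus number 4 in this medium. Neighbours from IGFBP5 down to IGFBP2 overlapped, so that only the steps around IGFBP6 were larger than the spread of the libraries.

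**Figure D4:**
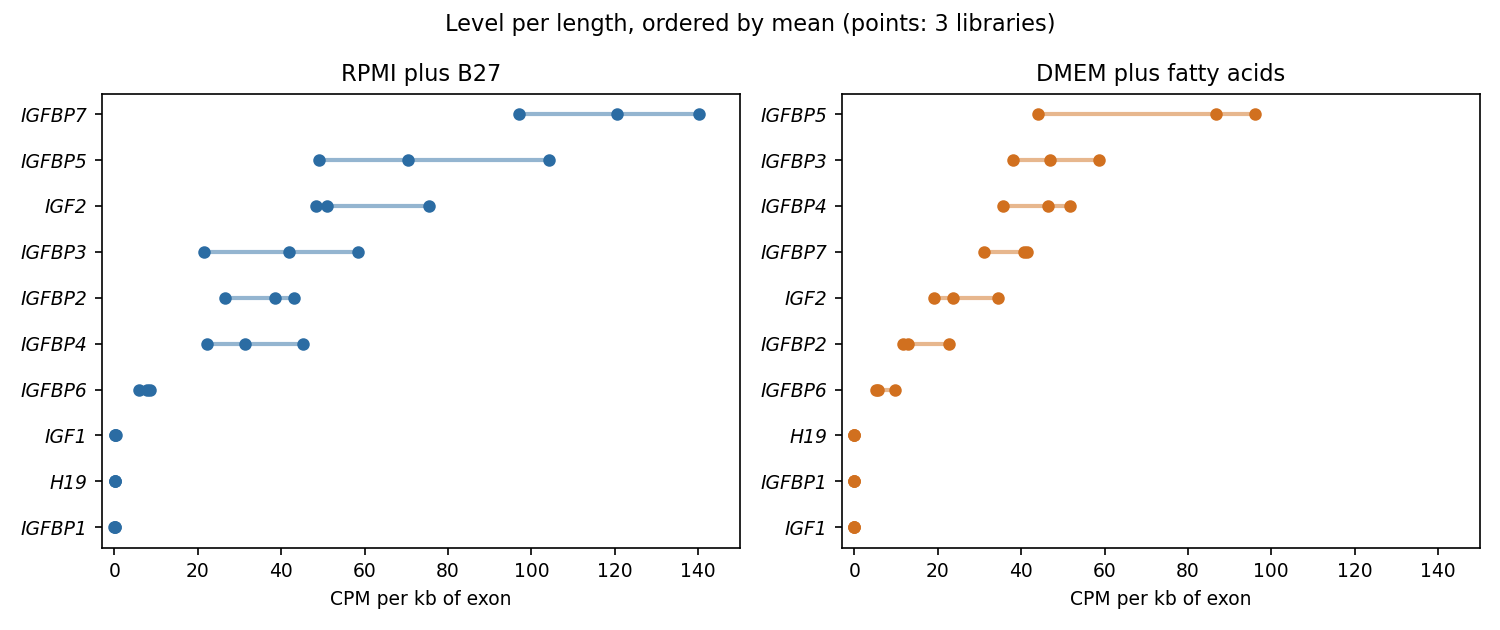
Level per length of the 10 genes in each medium, as CPM per kb of exon (horizontal axis, linear), ordered by mean. Points are the 3 libraries of a medium and lines their range. IGFBP7 is first in RPMI plus B27 and number 4 in DMEM plus fatty acids, and IGF1, H19 and IGFBP1 are near 0 in both.

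The summed level of the 7 binding proteins was 399, 275.2 and 258.3 CPM per kb in RPMI plus B27 and 258.6, 197.4 and 229.3 in DMEM plus fatty acids, which overlapped by a small margin. IGFBP7 made up 35.2%, 43.8% and 37.5% of this sum in the first medium and 11.98%, 21.0% and 17.7% in the second. IGFBP4 made up 11.3%, 11.4% and 8.60% against 19.98%, 23.5% and 15.5%, and IGFBP3 14.6%, 15.2% and 8.32% against 22.7%, 23.8% and 16.6%. The shares of IGFBP4 and IGFBP3 were thus higher in every DMEM plus fatty acids library although their own levels overlapped, since a share also moves with the other members of the sum. IGFBP5 held 26.1%, 17.8% and 27.3% against 37.2%, 22.3% and 37.9%, which overlapped.

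The next list holds genes that act on the binding proteins. Of 21 proteases, ternary complex proteins and modulators, 20 were tested, 5 were called lower and 0 higher (1.07% and 0.292% over all genes tested), and the list's median log2 fold change was -1.02. IGFALS, which forms the ternary complex of blood with IGFBP3, was not tested. PAPPA, the protease that cuts IGFBP4 and IGFBP2, stood at 25.9, 15.8 and 21.7 CPM in RPMI plus B27 and at 0.904, 2.74 and 2.79 CPM in DMEM plus fatty acids (log2 fold change -3.28 ± 0.43 (SE), adjusted p 0.0292). STC1, a secreted inhibitor of PAPPA, stood at 56.5, 28.1 and 14.1 CPM and at 3.88, 3.68 and 1.66 CPM (-3.43 ± 0.57, 0.0427). No library of either gene crossed into the range of the other medium, so that a protease and its inhibitor were called in the same direction. With at least 10 counts required in every library PAPPA was still called (edgeR, adjusted p 0.0339) and STC1 was not (0.0524). The same held with limma voom (0.03 and 0.0834).

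The other called genes of that list were ADAM9, ADAM12 and MMP2, metalloproteases that can cut binding proteins. ADAM9 had means of 196.0 ± 18.2 and 95.6 ± 8.60 CPM (SD, n = 3), and MMP2 of 99.7 ± 26.3 and 23.7 ± 8.04 CPM. ADAM12 was low, at 1.27 to 3.13 CPM in RPMI plus B27 and 0.234 to 0.474 CPM in DMEM plus fatty acids, and could be tested only through its RPMI plus B27 libraries. With at least 10 counts required in every library, 3 of 19 genes of the list were called. PAPPA2 (adjusted p 0.285), STC2 (0.512) and HTRA1 (0.839) were not called. Without RPMI plus B27 replicate 3, 4 genes of the list were called, without DMEM plus fatty acids replicate 1 there was 1, and without any of the other 4 libraries 0. MMP2 is also made by stromal cells, whose summed markers are given above, and their part was not tested.

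Of 17 proteins related to the binding proteins by sequence or by a shared domain, 13 were tested, 4 were called lower and 0 higher, against 1.07% and 0.292% of all genes, with a median log2 fold change of -0.93. They were CCN4, a matricellular protein with an IGFBP domain, CRIM1, a membrane protein with such a domain, and the matrix proteins SPARC and SMOC2. CCN4, at 0.0861 to 0.301 CPM in DMEM plus fatty acids, passed the filter only through RPMI plus B27, and 1 of 11 genes was called, SMOC2, with at least 10 counts required in every library. SPARC stood at 1333, 1478 and 1313 CPM in RPMI plus B27 and at 160.8, 330.7 and 485.7 CPM in DMEM plus fatty acids, at an adjusted p of 0.0492. With the replicate block 6 were called lower, CCN1 and CCN2 being added, and 1 higher, KAZALD1, against 3.42% and 1.36% of all genes. The list's calls numbered 3 without RPMI plus B27 replicate 3 and 0 without any other single library.

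**Figure D5:**
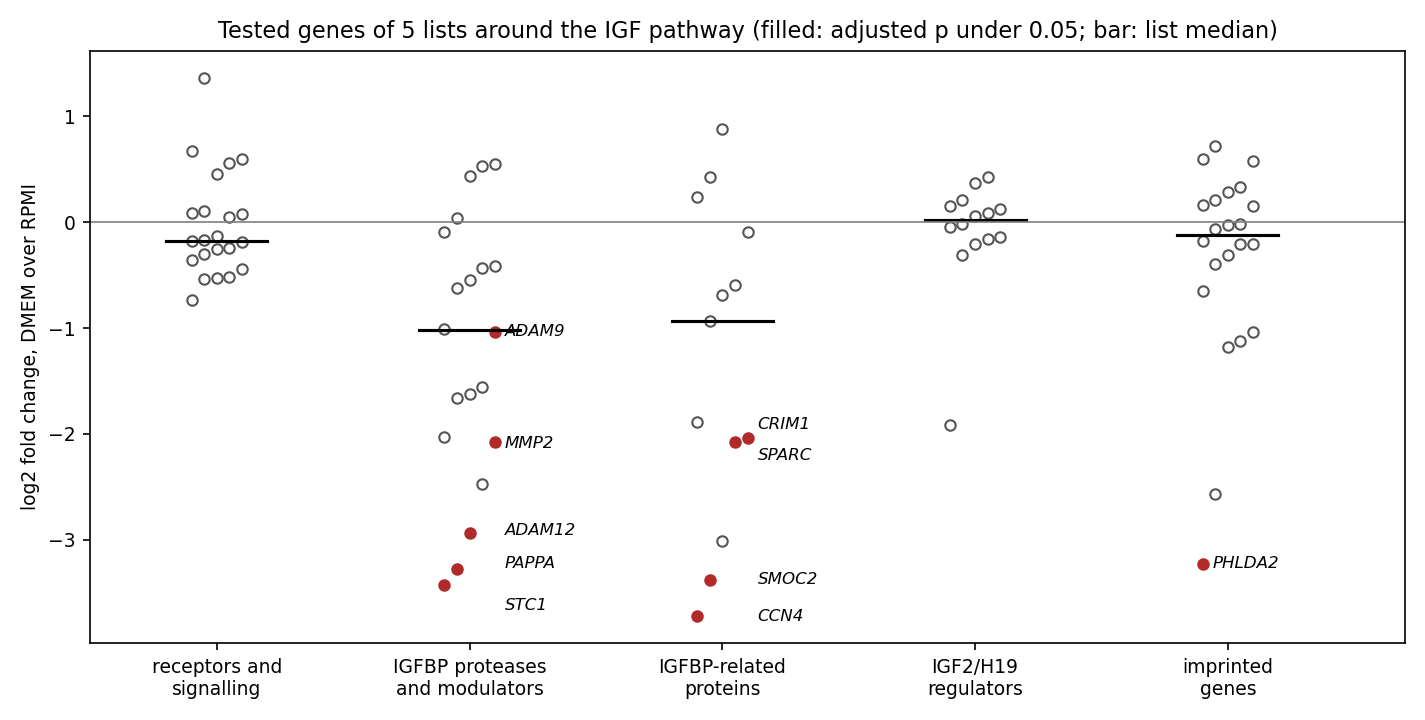
Log2 fold change of each tested gene between media (vertical axis, below 0 where DMEM plus fatty acids was lower), in 5 lists around the IGF pathway. Points are genes, filled and named where the adjusted p is under 0.05, and bars are list medians. The 5 called proteases and modulators and the 4 called related proteins all lie below 0, and no gene of the receptor list is filled.

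None of the 22 receptors and proximal signalling genes was called, and their median log2 fold change was -0.17. An unadjusted p under 0.05 was found for 7 of the 22, beside 2848 of all 16107 genes tested. IGF1R, the receptor of both ligands, stood at 157.6, 124.5 and 129.6 CPM in RPMI plus B27 and at 148.3, 102.5 and 97.6 CPM in DMEM plus fatty acids (adjusted p 0.548). IGF2R, which clears IGF2, was higher in every DMEM plus fatty acids library, with means of 222.5 ± 37.1 and 304.4 ± 36.9 CPM (SD, n = 3), but not called (log2 fold change 0.45 ± 0.16 (SE), adjusted p 0.207). INSR, the insulin receptor, had means of 69.0 ± 19.9 and 41.6 ± 8.91 CPM at an adjusted p of 0.175. IRS1, the docking protein of these receptors, stood at 135.1 ± 13.8 and 94.0 ± 15.4 CPM (0.147), and its relative IRS4 was below 1 CPM in every library (0.19). With the replicate block INSR was called lower (0.0238) and GRB10, an adaptor that damps insulin and IGF receptors, higher (0.0476). Of all genes 3.42% were called lower and 1.36% higher with the block.

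Of 14 tested regulators of IGF2 and H19 RNA 0 were called by edgeR, and the median log2 fold change was 0.02. An unadjusted p under 0.05 was found for 2 of the 14, beside 2848 of all 16107 genes tested. IGF2BP1, which binds IGF2 RNA and regulates its translation, had means of 297.8 ± 44.8 and 239.8 ± 13.97 CPM (SD, n = 3), without overlap and at an adjusted p of 0.305. CTCF, the insulator protein that binds the imprinting control region of the IGF2 and H19 locus, had means of 49.3 ± 8.03 and 66.4 ± 3.64 CPM, also without overlap (adjusted p 0.188), and DNMT1, the maintenance DNA methyltransferase, overlapped (0.502). With the block ZFP57, a zinc finger protein that keeps imprints, was called lower (adjusted p 0.0281), where 3.42% of all genes were.

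Among 22 tested imprinted genes, IGF2 included, 1 was called lower and 0 higher, with a median log2 fold change of -0.12. Of all genes tested 1.07% were called lower, so a single call among 22 is no result about the list. This was PHLDA2, a maternally expressed growth restrainer near IGF2 on chromosome 11, at 3.20, 1.32 and 1.08 CPM in RPMI plus B27 and 0.172, 0.234 and 0.178 CPM in DMEM plus fatty acids (-3.23 ± 0.54 (SE), adjusted p 0.0442). It passed the filter only through RPMI plus B27, and with at least 10 counts required in every library 0 of 20 imprinted genes were called. The call held without RPMI plus B27 replicate 3 and was lost without any other single library. CDKN1C, a cell cycle inhibitor of the same domain, had means of 32.1 ± 8.06 and 31.6 ± 1.25 CPM (adjusted p 0.962). With the block, DLK1 was also called lower and GRB10 higher, against 3.42% and 1.36% of all genes.

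The genes whose log2 CPM followed each gene most closely over the 6 libraries were found among 10027 or 10028 genes with a mean of 10 CPM or more, by Pearson's r with no test. For IGF2 they were FN1, the matrix protein fibronectin, with r of 0.994, ULK2 with 0.992 and PTK7 with 0.990. For IGFBP7 they were ITGA11, a collagen receptor subunit, with r of 0.995, LOXL1, a collagen and elastin cross-linking enzyme, with 0.995, and TXNIP with 0.994. For IGF1, which had few counts, they were TRAPPC2 with r of 0.992, VGLL4 with 0.990 and NUP58 with 0.985. FN1 ranged from 2829 to 6846 CPM in RPMI plus B27 and from 429.6 to 1072 CPM in DMEM plus fatty acids, with replicate 1 the highest of the first medium and the lowest of the second, as for IGF2. Over 6 libraries in 2 groups, such values of r describe mostly the step between media.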

How the data were processed

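Counts per gene were deposited as 1 file per library by the authors, with no normalization. The submitters' processing notes name STAR, HTSeq and the build hg38, without versions, and the strand setting is not given in the sources used here. Groups and replicate numbers come from the sample titles. Rows that name no gene stayed out of library sizes and tests: no feature (5.44% to 7.57%), ambiguous (3.9% to 4.15%) and not unique (3.05% to 4.1%).

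From these counts edgeR 4.0.16 in R 4.3.3 was used with default filterByExpr settings (10 counts as minimum, 15 in total), TMM and the quasi-likelihood test over all 6 libraries without covariates, adjusted by Benjamini-Hochberg over 16107 genes with a threshold of 0.05. CPM are TMM-scaled, and each SE was derived from the F statistic. The script was tested on simulated data. Alternatives were other scalings and filters, DESeq2 1.42.0, limma 3.58.1 voom, a replicate block and leaving out each library. Deviations from the medium means correlated at 0.313, 0.428 and 0.365 between libraries with the same number and at -0.242 to -0.136 otherwise. The deviations of the 3 libraries of a medium sum to 0, so negative values between unlike numbers are in part built in. Same-numbered libraries were treated as pairs only in the fit with the replicate block, and the main fit and the fits without a library ignore such pairs. What a number stands for is not labelled. No pair of libraries agreed within counting noise.

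Positions and exon lengths come from GENCODE release 29 (GRCh38) and promoter windows from RefSeq. The members and lists were chosen with earlier results of these data known. The genes named are all 10 members, every called gene of a pathway list or otherwise up to 4 with the smallest p, transcripts overlapping a member, and the 3 genes of at least 10 mean CPM most like IGF2 and each called member (Pearson r, prior count 2). Genes outside this rule, such as IGF1R, IGF2R, TNNT2, MYH6, MYH7, ACTN2, KDR and WT1, were named for their role or after their values were seen.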

Additional observations from a re-analysis of the deposited data

How the results depend on the processing

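Depth limited IGF1, H19 and IGFBP1, whose counts in DMEM plus fatty acids were at most 2 per library, and 3 libraries per medium limited every call. Over all genes, 219 calls became 539 without a filter, 119 with at least 10 counts in every library, 1212 with DESeq2, 770 with the replicate block and 3 to 131 when 1 library was left out. Of the members, 2 calls became 4 without a filter, 1 with at least 10 counts in every library, 4 with DESeq2 and 0 to 1 with a library left out. Of the list genes, 19 calls became 32 without a filter, 8 with at least 10 counts in every library, 48 with DESeq2, 42 with the replicate block and 0 to 16 with a library left out. An alternative chosen after seeing the data, without replicate 3 of either medium, gave 0 calls over all genes, 0 among members and 0 among list genes by edgeR, with 2678 genes at an unadjusted p under 0.05; IGF1 and IGFBP7 then had adjusted p of 0.159 and 0.118. The replicate block added IGFBP2 and changed no other member's call. With total counts in place of TMM the all-gene median log2 fold change moved from 0.01 to 0.12, and the share of lower calls from 78.5% to 63.4%, while the called members stayed the same in number. IGF1, IGF2, IGFBP2, IGFBP4 and IGFBP7 had the same direction in every alternative that tested them. With a library left out, IGFBP3 ranged from -0.064 (without RPMI plus B27 replicate 3) to 0.595, IGFBP5 from -0.21 to 0.34 and IGFBP6 from -0.433 to 0.066, and without replicate 3 of either medium the latter 2 genes were at -0.13 (IGFBP5) and 0.18 (IGFBP6). The causes were not tested. Without a filter, H19 (-2.45, adjusted p 0.232) and IGFBP1 (-1.43, 0.66) were tested and not called.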
